A study of Mus musculus with 6 samples.

Results

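Antibody transcripts were followed in whole kidneys of mice by RNA sequencing, through the variable (V) segments of the heavy chain (Ighv), the kappa light chain (Igkv) and the lambda light chain (Iglv), the constant regions Igkc, Ighm, Igha, Ighg1, Ighg2b, Ighg2c and Ighg3, and the joining chain Jchain. Members were all genes of these names whose raw counts summed to 15 or more over the 6 libraries. Of 358 genes so named, 163 met this rule, among 54146 genes listed: 76 of 185 Ighv, 76 of 162 Igkv, 3 of 3 Iglv segments and all 8 constant genes. The members were thus chosen by their summed raw count, which is given only as a description. Just inside the threshold were Ighv1-58, Ighv1-77 and Igkv11-125 with 15 counts each, and just outside were Igkv7-33 with 14, Igkv1-99 with 13 and Ighv3-5 with 12. The 195 genes under the threshold held 242 counts in all, and 146 of them had 0 counts.

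The mice were of strain B6C3F1/J at postnatal day 84 (12 weeks). Every group carried the floxed Tfam allele (Tfam f/f), and the 3 KspCre Tfam f/f-labelled libraries came, by label, from mice that also had the Ksp-Cre transgene, in which the Ksp-cadherin promoter drives Cre in kidney tubule epithelium. The 3 Tfam f/f-labelled libraries were, by label, the controls without Cre. Tfam itself, which packages mitochondrial DNA, went against these labels. It stood at 30.3, 33.6 and 23.2 CPM in Tfam f/f-labelled replicates 1, 2 and 3 and at 63.1, 63.5 and 61.4 CPM in KspCre Tfam f/f-labelled replicates 1, 2 and 3 (2.15-fold lower in the former, edgeR adjusted p = 0.00107). Groups are therefore named only by their labels, and each direction is between labels, not between known genotypes. CPM values are counts scaled to a common library total with TMM factors, which balance libraries over the bulk of their genes, and triplets of values follow the order of replicates 1, 2 and 3. Total gene counts were 19024208 to 34821537 in the Tfam f/f-labelled libraries and 30348281 to 48899266 in the KspCre Tfam f/f-labelled ones. All 6 kidney tubule markers looked at were detected in every library.

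An antibody is built of 2 heavy and 2 light chains. In each developing B cell a V segment is joined to short D and J segments, or to a J segment in light chains, and the joined exon is spliced to a constant region. IgM is the isotype made first, and class switching in the activated B cell exchanges its constant region for that of IgG or IgA. Plasma cells, the secreting end stage, hold antibody transcripts at very high levels. The J chain links IgA into dimers and IgM into pentamers, which epithelia carry into secretions through the receptor encoded by Pigr. In kidney, plasma cells and B cells are few at rest and gather in inflamed tissue.

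Germline V segments end with a conserved tyrosine, any residue, cysteine stretch that precedes the third antigen-binding loop, where V, D and J are joined. The last 90 transcribed bases of the segments on which the results turn are shown in 5′ to 3′ orientation of the transcript (mm10, GENCODE M21 transcripts), with that stretch in capitals. Igkv10-96 (chr6:68631963-68632052, minus strand) was the most abundant V segment in 4 of 6 libraries, and Igkv1-117 (chr6:68121738-68121827, plus strand) in Tfam f/f-labelled replicate 3. Igkv1-110 (chr6:68271178-68271267, plus strand) is a close relative of Igkv1-117. Igkv16-104 (chr6:68425983-68426072, plus strand), Igkv14-111 (chr6:68256780-68256869, plus strand) and Ighv1-72 (chr12:115757984-115758073, minus strand) had large shares in 1 library each, and Iglv1 (chr16:19085017-19085106, minus strand) carried most lambda counts.
Igkv10-96: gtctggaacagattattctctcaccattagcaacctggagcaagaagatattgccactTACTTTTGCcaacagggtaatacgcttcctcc
Igkv1-117: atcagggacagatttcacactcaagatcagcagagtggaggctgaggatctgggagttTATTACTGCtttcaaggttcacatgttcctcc
Igkv1-110: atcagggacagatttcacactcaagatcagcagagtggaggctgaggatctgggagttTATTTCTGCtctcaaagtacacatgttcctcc
Igkv16-104: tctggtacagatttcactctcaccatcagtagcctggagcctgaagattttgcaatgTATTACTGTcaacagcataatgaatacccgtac
Igkv14-111: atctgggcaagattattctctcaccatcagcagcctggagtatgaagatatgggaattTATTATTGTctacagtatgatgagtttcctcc
Ighv1-72: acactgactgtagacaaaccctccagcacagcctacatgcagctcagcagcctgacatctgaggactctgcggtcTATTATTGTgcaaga
Iglv1: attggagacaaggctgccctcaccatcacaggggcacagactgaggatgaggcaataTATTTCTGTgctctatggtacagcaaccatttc

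The capitals mark the pattern TANTNNTGN, searched on the transcript's strand alone in the last 45 bases, with no other motif searched. This pattern only approximates the stretch, since its middle codon must begin with T and the last base of each codon is open. Numbers of matches to the pattern are therefore not exact numbers of segments with the stretch. It was present in 152 of 155 V members, and in the same window of 4.17% of 58747 other protein-coding transcripts. In light chain segments 23 or 24 germline bases follow it in the sequences shown, against 6 in Ighv1-72. V segments resemble each other, which bears on counting. A stretch of 75 bases shared exactly with another gene was found in 51 of 76 Ighv and 51 of 76 Igkv members, covering a median of 6.09% and 7.60% of a transcript's 75-base windows. Ighv1-72 shared 71.7% of its windows, Igkv1-117 30.9% and Igkv1-110 31.2% (97.5% identical to each other), Igkv10-96 20.0%, and Igkv16-104 and Igkv14-111 0%. Reads that fit several genes were not counted, so levels of such segments are uncertain. Alignments set aside as not unique made up 5.38%, 6.74% and 5.06% of the file sums in the Tfam f/f-labelled libraries. In the KspCre Tfam f/f-labelled ones they made up 10.6%, 10.4% and 10.8%. These shares are over the whole file, and the part that falls on V segments was not tested. The reads were pairs of 150 bases, so a shared 75-base window need not make a pair ambiguous. Shares of windows are therefore not shares of reads lost. Rearranged and mutated segments, and segments of a strain that differs from the C57BL/6J reference, may also align to a near copy.

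The 8 constant genes were all higher in the Tfam f/f-labelled libraries, and the groups did not overlap for any of them. Antibody RNA as a whole, the sum over the 163 members, made up 0.108%, 0.0723% and 0.183% of counts in the Tfam f/f-labelled libraries and 0.0265%, 0.0189% and 0.0132% in the KspCre Tfam f/f-labelled ones. Folds among constant genes ran from 1.98 for Ighm, the IgM heavy chain, to 47.9 for Ighg1, the IgG1 heavy chain. In bulk tissue, more cells of the B lineage and more antibody RNA per cell cannot be told apart. Whether libraries of a label came from different animals is not stated, so the p-values refer to the spread among these libraries alone.

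**Figure D1:**
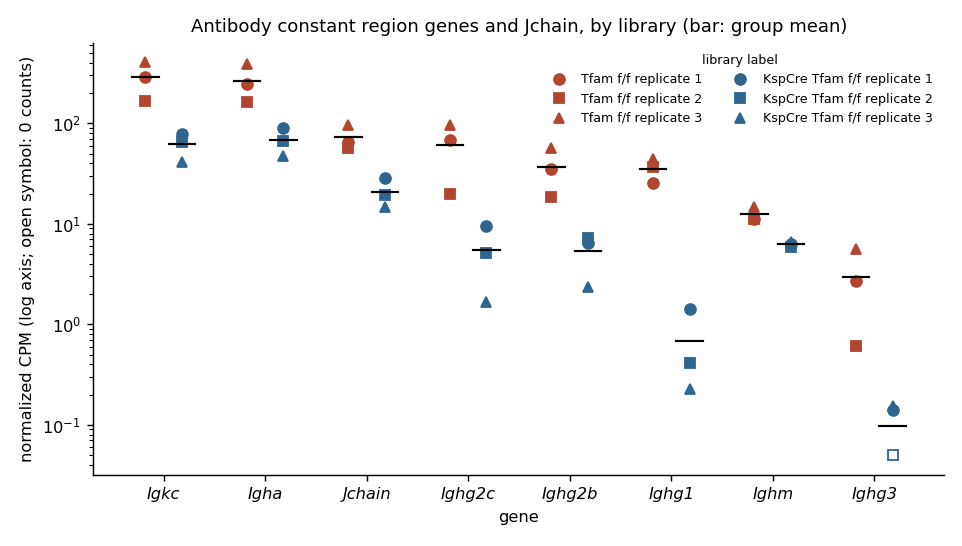
Normalized CPM of the 7 constant region genes and Jchain (log axis) in each of the 6 libraries. Red symbols are Tfam f/f-labelled libraries, blue the KspCre Tfam f/f-labelled ones, bars are group means and the open symbol is a library with 0 counts. Each gene's red symbols lie above its blue ones, and the gap is widest for Ighg1 (25.4 to 44.0 against 0.229 to 1.43 CPM).

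Igkc (ENSMUSG00000076609.2, chr6:70726435-70726966, plus strand), the kappa constant region found on most mouse antibodies, had 289, 165 and 404 CPM in the Tfam f/f-labelled libraries and 78.0, 65.2 and 41.4 CPM in the KspCre Tfam f/f-labelled ones. The lowest value of the former group was more than any of the latter, a 4.64-fold difference (log2 2.21, SE 0.36, edgeR adjusted p = 0.0031). Igha (ENSMUSG00000095079.6, chr12:113254830-113260236, minus strand), the IgA heavy chain, had 244, 162 and 388 CPM against 89.2, 67.2 and 47.7 CPM. It was 3.88-fold higher (log2 1.96, SE 0.35, edgeR adjusted p = 0.0045). Jchain (ENSMUSG00000067149.6, chr5:88519809-88527891, minus strand) had 65.6, 56.8 and 96.4 CPM against 28.5, 19.6 and 14.5 CPM, 3.48-fold higher (edgeR adjusted p = 0.0029). Its counts followed those of Igha: the Jchain to Igha ratio was 0.269, 0.351 and 0.248 in the Tfam f/f-labelled libraries and 0.320, 0.291 and 0.305 in the KspCre Tfam f/f-labelled ones, and the groups overlapped.

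Ighm (ENSMUSG00000076617.9, chr12:113418558-113422730, minus strand) had 11.3, 11.2 and 14.8 CPM in the Tfam f/f-labelled libraries and 6.29, 5.87 and 6.601 CPM in the KspCre Tfam f/f-labelled ones. Its 1.98-fold difference was the smallest of the 8 and came with the tightest replicates (log2 0.99, SE 0.16, edgeR adjusted p = 0.0026).

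The 4 IgG heavy chain genes lie between Ighm and Igha on chromosome 12. Ighg1 (ENSMUSG00000076614.7, chr12:113325240-113330523, minus strand) had 25.4, 36.8 and 44.0 CPM in the Tfam f/f-labelled libraries, from 691, 1398 and 1049 counts. In those labelled KspCre Tfam f/f it had 1.43, 0.411 and 0.229 CPM, from 61, 17 and 6 counts. The groups lay far apart, and Ighg1 was 47.9-fold higher in the former (log2 5.58, SE 0.53, edgeR adjusted p = 0.00042), and 104-fold without KspCre Tfam f/f-labelled replicate 1. Ighg2c (ENSMUSG00000076612.8, chr12:113285325-113288932, minus strand), the IgG2c heavy chain, had 68.2, 20.0 and 95.1 CPM against 9.56, 5.07 and 1.68 CPM. Tfam f/f-labelled replicate 2 was the lowest of its group and still above each library of the other, with 10.9-fold over all libraries (edgeR adjusted p = 0.0077) and 17.4-fold without KspCre Tfam f/f-labelled replicate 1.

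Ighg2b (ENSMUSG00000076613.4, chr12:113302965-113307933, minus strand) had 34.8, 18.5 and 56.9 CPM against 6.48, 7.22 and 2.33 CPM, 6.74-fold higher (edgeR adjusted p = 0.0051). Ighg3 (ENSMUSG00000076615.4, chr12:113356224-113361232, minus strand) was the scarcest constant gene, with 74, 23 and 133 counts against 6, 0 and 4, and it passed the filter on low counts only through the Tfam f/f-labelled libraries, so its call is no independent support. Its fitted fold of 30.5 (edgeR adjusted p = 0.0084) was 17.1 without Tfam f/f-labelled replicate 3 and 44.1 without KspCre Tfam f/f-labelled replicate 1. Exact 75-base matches to another gene covered at most 0.768% of windows in Ighg2b, Ighg2c and Ighg3, and 0% in Ighg1. Per kilobase of exonic length the mean levels in the Tfam f/f-labelled libraries were 537 CPM for Igkc, 99.1 for Igha, 46.1 for Ighg2c, 29.0 for Jchain, 13.7 for both Ighg2b and Ighg1, 6.59 for Ighm and 1.18 for Ighg3. In those labelled KspCre Tfam f/f they were 116 for Igkc, 25.5 for Igha, 8.30 for Jchain, 4.10 for Ighg2c, 3.32 for Ighm, 2.00 for Ighg2b, 0.266 for Ighg1 and 0.03895 for Ighg3. Ighm thus stood above Ighg1 and Ighg2b in that group and under them in the other. The annotated exonic length is 1326 bases for Ighg2c, against 2678 for Ighg2b, 2592 for Ighg1 and 2668 for Igha. This shorter length raises the Ighg2c values per kilobase relative to theirs.

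The makeup of heavy chain RNA differed between labels as well as its amount, with a larger share of IgG and smaller shares of IgA and IgM in the Tfam f/f-labelled libraries. Of counts on the 6 heavy chain constant genes, 1538 to 14403 per library, IgG took 33.9%, 30.5% and 33.4% there, and 15.6%, 14.8% and 7.48% in the KspCre Tfam f/f-labelled libraries. The means were 32.6% ± 1.82 and 12.6% ± 4.47 (SD, n = 3 each), a gap of 20.0 percentage points that exceeds the spread in either group. Igha took 63.1%, 65.0% and 64.2% against 78.9%, 78.3% and 81.3%, so IgA was the main isotype in every library. Ighm took 2.92%, 4.51% and 2.44% against 5.56%, 6.85% and 11.2%. None of these 3 shares overlapped between groups. Per exonic length, IgG took 43.6%, 35.4% and 42.3% against 21.8%, 19.1% and 9.65%, values that the short annotated length of Ighg2c raises. Such shares are taken within a library, so library scaling does not enter them.

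**Figure D2:**
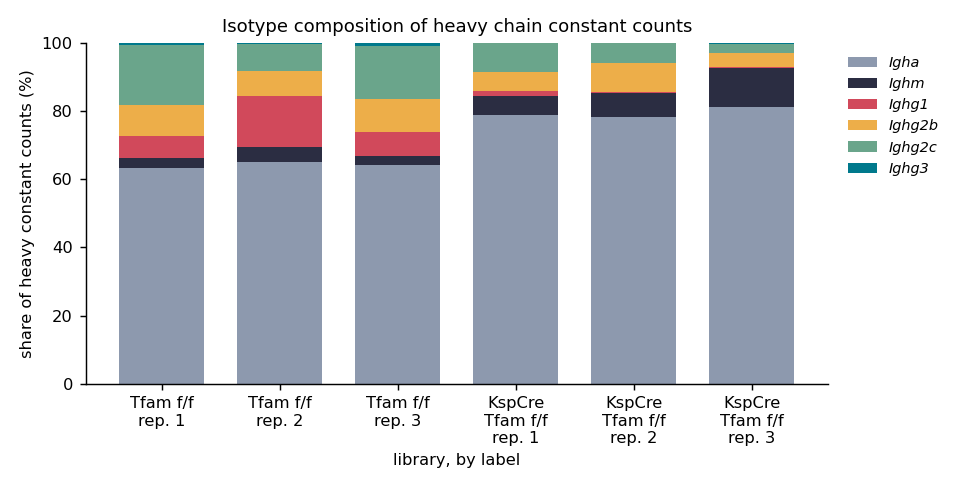
Share of each heavy chain constant gene (percent of the counts on the 6 genes) in each library, stacked to 100%. Igha fills 63.1% to 65.0% of the bars labelled Tfam f/f and 78.3% to 81.3% of the KspCre Tfam f/f-labelled ones, and the Ighg1 band is 6.57% to 14.8% in the former and 0.390% to 1.27% in the latter.

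Among heavy chains, the share of Ighg1 differed by the largest ratio of group means. It took 6.57% (95% exact Clopper-Pearson interval 6.10 to 7.06), 14.8% (14.1 to 15.5) and 7.28% (6.86 to 7.72) in the Tfam f/f-labelled libraries. In those labelled KspCre Tfam f/f it took 1.27% (0.970 to 1.62), 0.479% (0.279 to 0.766) and 0.390% (0.143 to 0.847). These intervals cover counting error only, and those of the groups did not meet. For each Ighm count there were 2.25, 3.28 and 2.98 Ighg1 counts in the Tfam f/f-labelled libraries, and 0.228, 0.0700 and 0.0347 in the KspCre Tfam f/f-labelled ones. Within IgG, Ighg1 took 19.3%, 48.5% and 21.8% against 8.13%, 3.23% and 5.22%, and Ighg2b took 26.6%, 24.4% and 28.2% against 36.8%, 56.8% and 53.0%. The Ighg2c share of IgG, 52.0%, 26.3% and 47.2% against 54.3%, 39.9% and 38.3%, overlapped between groups. Tfam f/f-labelled replicate 2 stood apart within its group, with the highest Ighg1 and the lowest Ighg2c share. Constant regions of B6C3F1/J mice that differ from the C57BL/6J reference may be counted only in part. The effect of this on Ighg2c and on the shares of single libraries was not tested.

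V segments were higher in the Tfam f/f-labelled libraries across all 3 chains. The summed Ighv level was 65.4, 63.9 and 118 CPM there and 28.8, 17.0 and 12.3 CPM in the KspCre Tfam f/f-labelled ones. Summed Igkv reached 133, 122 and 222 CPM against 50.6, 32.8 and 23.7 CPM. Summed Iglv reached 9.73, 6.59 and 13.5 CPM against 4.84, 1.76 and 1.72 CPM. In every chain the lowest Tfam f/f-labelled library was above the highest labelled KspCre Tfam f/f. Over all V segments the means were 251 ± 88.5 and 57.9 ± 23.9 CPM (SD, n = 3 each), a ratio of 4.34.

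Of the 155 V members, 109 passed the filter on low counts and were tested, as were the 8 constant genes. With an edgeR adjusted p under 0.05, 82 V members were higher in the Tfam f/f-labelled libraries (38 of 52 Ighv, 42 of 55 Igkv, 2 of 2 Iglv), 0 were lower and 27 were not called. With the constant genes this made 90 of 117 members tested. Over the whole table, 24.9% of 17308 genes tested were called higher and 21.3% lower, and the median log2 difference was 1.97 for the members tested and 0.03 for all genes. Values of all 3 Tfam f/f-labelled libraries lay above the other 3 in 94 of the 117, against 32.1% of all genes, and below them in 0, against 29.8%. Because 39 of the 117 passed the filter only through the Tfam f/f-labelled libraries, these counts describe the members that could be tested. All 163 entered a second fit, on genes with a summed count of 15 or more. There 106 were called higher (98 of 155 V), 0 lower and 57 neither, beside 21.3% of 20745 genes higher and 18% lower, and 6 had a negative estimate. At an unadjusted edgeR p under 0.05, 100 of the 117 were higher and 0 lower, beside 29.2% and 25.5% of all genes. DESeq2 called 95 of the members higher and 0 lower, beside 24.6% and 23.1% of all genes. Among tested V members, 49 of the 55 with the higher mean CPM were called and 33 of the 54 with the lower.

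**Figure D3:**
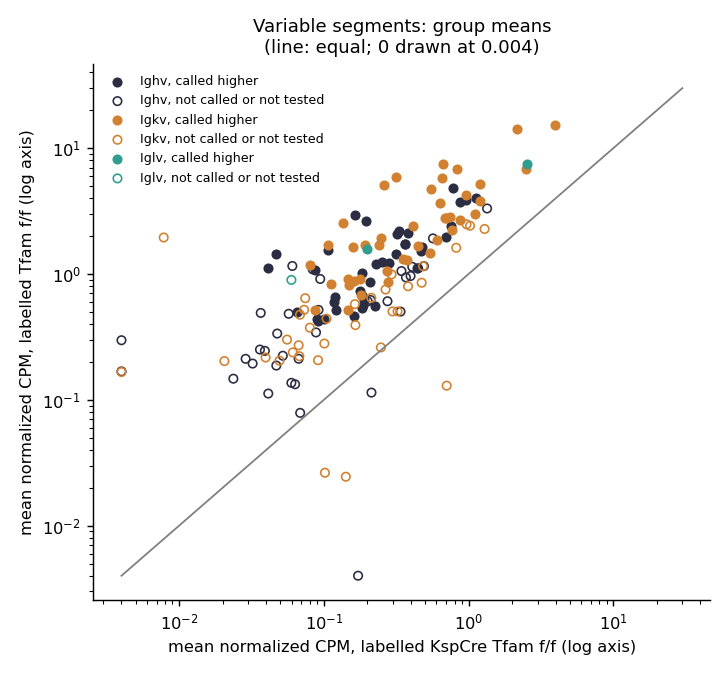
Mean normalized CPM of each of the 155 V members in the Tfam f/f-labelled libraries (vertical, log axis) against that in the KspCre Tfam f/f-labelled libraries (horizontal, log axis). Filled symbols are the 82 called higher, open ones the others, the line marks equal means and a mean of 0 is drawn at 0.004. All filled symbols lie above the line, and the few segments below it are open.

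Igkv10-96 was the V segment with the highest mean over the 6 libraries, with 13.8, 9.19 and 23.0 CPM in the Tfam f/f-labelled libraries and 5.71, 3.70 and 2.48 CPM in the KspCre Tfam f/f-labelled ones. The groups did not overlap, and it was 3.81-fold higher (log2 1.93, SE 0.40, edgeR adjusted p = 0.0077). Its share of Igkv counts was 10.35%, 7.54% and 10.37% against 11.3%, 11.3% and 10.45%, slightly lower in each Tfam f/f-labelled library than in any of the others. Igkv1-117 had 11.5, 7.88 and 23.3 CPM against 2.42, 2.30 and 1.79 CPM, 6.47-fold higher (edgeR adjusted p = 0.0023). Its near copy Igkv1-110 had 5.43, 5.74 and 9.23 CPM against 3.87, 2.37 and 1.26 CPM, 2.67-fold higher (edgeR adjusted p = 0.0219), a call lost without KspCre Tfam f/f-labelled replicate 2 (adjusted p = 0.0792) or 3 (0.0515). Shares of these relatives differed in pattern: Igkv1-110 took 4.09%, 4.71% and 4.16% of Igkv counts in the Tfam f/f-labelled libraries and 7.66%, 7.22% and 5.31% in the KspCre Tfam f/f-labelled ones, with no overlap, whereas for Igkv1-117 the groups overlapped.

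Igkv8-21 had 5.10, 3.13 and 6.09 CPM against 0.845, 0.435 and 0.382 CPM, an 8.34-fold difference with close replicates (log2 3.06, SE 0.39, edgeR adjusted p = 0.0012). Igkv1-135 was 4.26-fold higher (edgeR adjusted p = 0.0019). Igkv6-15 and Igkv8-24 were 8.56-fold and 18.9-fold higher, and 4.28-fold and 9.29-fold without Tfam f/f-labelled replicate 3, where they reached 11.5 and 11.8 CPM. The Igkv8-24 call was lost with limma voom (adjusted p = 0.0599).

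Several abundant segments owed much of their group mean to 1 library. Igkv16-104 had 4.15, 16.4 and 2.01 CPM in the Tfam f/f-labelled libraries and 1.39, 0.145 and 0.458 CPM in the KspCre Tfam f/f-labelled ones. Tfam f/f-labelled replicate 2 was far above the rest, and the 11.1-fold difference (edgeR adjusted p = 0.0220) became 4.48-fold without it (adjusted p = 0.0523). Without KspCre Tfam f/f-labelled replicate 1 the fold was 26.6. The call was also lost without replicate 2 or 3 of that label (adjusted p = 0.0695 and 0.0789) and with the replicate number as a block (adjusted p = 0.0663). Igkv14-111 had 3.89, 12.4 and 4.15 CPM against 1.10, 0.652 and 0.725 CPM, 8.21-fold higher (edgeR adjusted p = 0.0037) and 4.72-fold without Tfam f/f-labelled replicate 2, with the call kept in every alternative run.

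Ighv1-72, the heavy chain segment with the highest mean, was high in the same library, with 2.39, 9.59 and 2.43 CPM against 1.46, 0.387 and 0.496 CPM. It was 6.08-fold higher (edgeR adjusted p = 0.0224), 2.96-fold without Tfam f/f-labelled replicate 2 and 11.0-fold without KspCre Tfam f/f-labelled replicate 1. Its call was lost without replicate 2 or 3 of the latter label (adjusted p = 0.0815 and 0.0803) and with the replicate block (0.0652). Igkv4-68 was high in Tfam f/f-labelled replicate 3, with 2.20, 0.553 and 12.5 CPM against 0.399, 0.266 and 0.114 CPM. Its 18.1-fold difference (edgeR adjusted p = 0.0219) was 4.85-fold without that library. The Igkv4-68 call was lost with limma voom (adjusted p = 0.131), with the replicate block (0.0593), and without any 1 of the 3 KspCre Tfam f/f-labelled libraries (0.0616, 0.0762 and 0.0744).

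Iglv1, the most used lambda segment, had 7.42, 5.45 and 9.48 CPM against 4.46, 1.67 and 1.41 CPM. It was 2.91-fold higher (edgeR adjusted p = 0.0249) and 4.76-fold without KspCre Tfam f/f-labelled replicate 1. Its call was lost without Tfam f/f-labelled replicate 1 (adjusted p = 0.0704) and without KspCre Tfam f/f-labelled replicate 2 (0.0886) or 3 (0.0746). Iglv2 had 1.76, 0.922 and 2.10 CPM against 0.235, 0.0966 and 0.267 CPM, 8.003-fold higher (edgeR adjusted p = 0.0027), and passed the filter on low counts only through the Tfam f/f-labelled libraries. Iglv3, which was not tested, had 15, 8 and 46 counts against 6, 0 and 1.

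Few segments had the opposite order. The 6 members with a negative estimate in the fit of all 163 were Ighv6-7, Ighv11-2, Igkv4-63, Igkv4-86, Igkv8-18 and Igkv14-130, none of them called, and each had its highest count in KspCre Tfam f/f-labelled replicate 1. Igkv4-63 had 2, 4 and 5 counts in the Tfam f/f-labelled libraries and 75, 10 and 3 in the KspCre Tfam f/f-labelled ones, and Ighv6-7 had 0, 0 and 0 against 21, 1 and 0. In the other direction Ighv5-12 (6, 8 and 11 counts), Ighv15-2 (2, 10 and 4) and Igkv11-125 (10, 5 and 0) had 0 counts in all KspCre Tfam f/f-labelled libraries. These segments were named after their values were seen.

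The variety of V segments did not set the groups apart once libraries were compared at equal numbers of V counts. The Tfam f/f-labelled libraries held 5668, 7301 and 8411 V counts and at least 1 count of 151, 153 and 149 of the 155 members. The KspCre Tfam f/f-labelled ones held 3586, 2136 and 989 V counts and showed 146, 140 and 136 members. Expected at 989 V counts, the numbers were 132, 132 and 131 against 126, 127 and 136, so the groups overlapped, with means of 131.7 ± 0.53 and 129.4 ± 5.75 (SD, n = 3 each). At an equal total of 19024208 gene counts, which keeps the difference in antibody RNA, the numbers were 150.2, 150.7 and 149.0 against 132.8, 122.7 and 123.7, with no overlap.

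**Figure D4:**
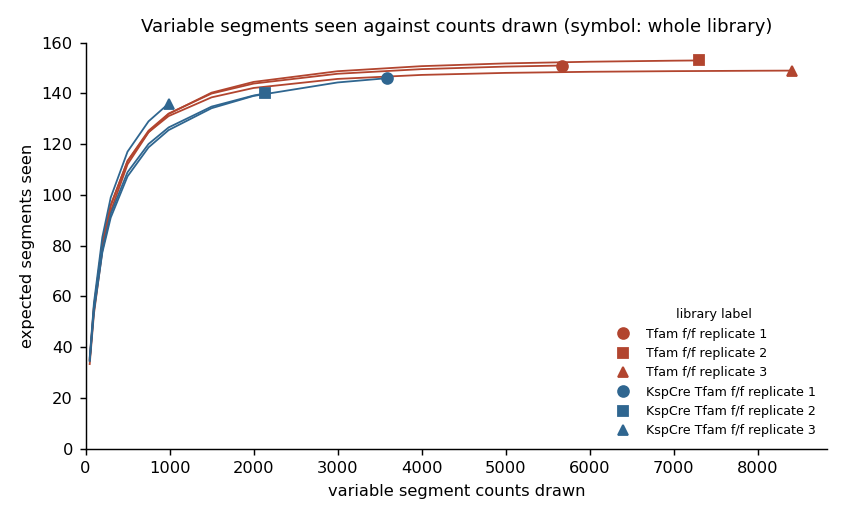
Expected number of V members seen (vertical) against the number of V counts drawn from a library (horizontal), with a curve for each library that ends in a symbol at its full V count. The curves of the labels lie close together, and KspCre Tfam f/f-labelled replicate 3 reaches 136 segments at 989 counts, above the 5 other curves at that point.

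Evenness of use, taken at each library's full counts and not at equal numbers, also overlapped between groups. Ighv counts were 1780 to 2805 in the Tfam f/f-labelled libraries and 322 to 1227 in the KspCre Tfam f/f-labelled ones. Few counts can lower an effective number, so this comparison is not free of depth. The effective number of V segments (the number of equally used segments with the same Shannon entropy) was 84.3, 74.4 and 82.8 in the Tfam f/f-labelled libraries and 77.8, 78.0 and 82.7 in the KspCre Tfam f/f-labelled ones. For Ighv alone it was 50.1, 44.3 and 49.7 against 44.1, 42.9 and 44.8, and for Igkv alone 41.4, 35.4 and 38.9 against 39.1, 39.7 and 42.3. The 10 most used Igkv segments took 48.3%, 55.9% and 52.0% of Igkv counts against 49.6%, 50.7% and 46.9%, also overlapping. Tfam f/f-labelled replicate 2 had the lowest effective number over all V and for Igkv.

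Likeness in segment use covered overlapping ranges within and between groups. Sampling noise in libraries with few V counts can lower the usage a pair shares, so likeness and depth are not separated here. The usage shared by a pair of libraries, summed as the smaller share of each Igkv segment, was 68.2% to 78.9% among Tfam f/f-labelled libraries, 73.6% to 76.7% among the KspCre Tfam f/f-labelled ones and 66.9% to 74.3% between groups. For Ighv it was 66.8% to 78.2%, 66.9% to 71.6% and 67.8% to 72.6%. The Ighv1 family, the largest with 40 members, took 56.9% ± 7.84 of Ighv counts against 56.1% ± 3.19 (SD, n = 3 each), and the Igkv1 family 17.3% ± 2.02 of Igkv counts against 17.4% ± 0.95. Of 25 families with at least 200 counts, 4 did not overlap between groups. By CPM, 32.1% of all genes tested lay wholly higher and 29.8% wholly lower, so the 4 are given only as a description. Igkv8 was higher in the Tfam f/f-labelled libraries (11.6%, 8.56% and 11.2% against 5.06%, 7.00% and 7.88%). Igkv5 was lower there (6.71%, 5.62% and 6.30% against 8.45%, 9.57% and 10.5%), as were Ighv6 (2.07% ± 0.10 against 3.69% ± 0.41) and Igkv15 (1.02% ± 0.10 against 2.52% ± 1.41). Igkv15 has only 1 member. Within Ighv6, Ighv6-7 took 1.71% of Ighv counts in KspCre Tfam f/f-labelled replicate 1, from 21 counts. These families were named after their values were seen.

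Single libraries had their own favoured segments. In Tfam f/f-labelled replicate 2, Igkv16-104 took 13.4% of Igkv counts against 0.442% to 3.12% in the 5 other libraries. There Igkv14-111 took 10.2% against 1.87% to 3.05%, and Ighv1-72 took 15.01% of Ighv counts against 2.07% to 5.05%. With a criterion set after seeing the data (at least 30 counts and a share at least 3-fold above the next library), 7 segments stood out in 1 library: 2 each in Tfam f/f-labelled replicates 1 and 2, 1 in replicate 3, and 2 in KspCre Tfam f/f-labelled replicate 1. They were Igkv9-129 (3.70% of Igkv counts) and Igkv3-12 (3.64%) in the first of these libraries, Igkv16-104 and Igkv14-111 in the second and Igkv4-68 (5.64%) in the third. Those of KspCre Tfam f/f-labelled replicate 1 were Igkv4-63 (3.48%) and Ighv9-2 (3.18% of Ighv counts). The other KspCre Tfam f/f-labelled libraries had fewer V counts and none such. The most used Ighv segment was Ighv1-64, Ighv1-72 and Ighv4-1 in Tfam f/f-labelled replicates 1, 2 and 3, and Ighv9-3, Ighv1-26 and Ighv9-3 in KspCre Tfam f/f-labelled replicates 1, 2 and 3.

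**Figure D5:**
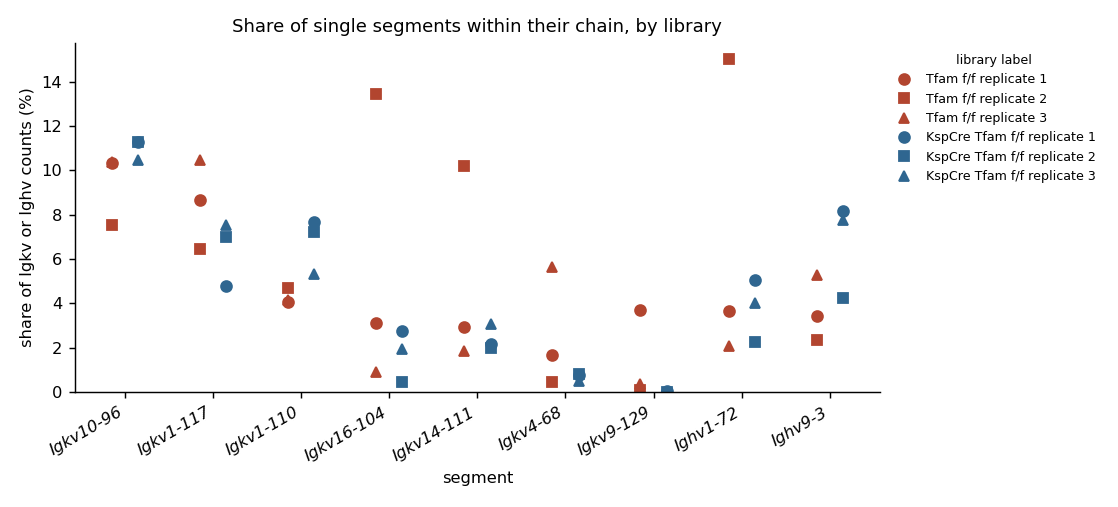
Share of 9 V segments in the Igkv or Ighv counts of each library (percent). Red symbols are Tfam f/f-labelled libraries and blue the KspCre Tfam f/f-labelled ones. Igkv16-104 (13.4%), Igkv14-111 (10.2%) and Ighv1-72 (15.01%) stand out in Tfam f/f-labelled replicate 2, and Igkv10-96 lies between 7.54% and 11.3% in all 6.

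Proportions between chains overlapped between groups. Lambda took 6.82%, 5.13% and 5.74% of light chain V counts in the Tfam f/f-labelled libraries and 8.73%, 5.10% and 6.75% in the KspCre Tfam f/f-labelled ones. There were 0.747, 0.664 and 0.668 Igkc counts for each heavy chain constant count, against 0.689, 0.760 and 0.705. There were 2.04, 1.91 and 1.88 Igkv counts for each Ighv count, against 1.75, 1.93 and 1.93.

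Other genes of the antibody loci were mostly too scarce to test. Of 23, 5 were tested: the lambda constant regions Iglc3 (7.15-fold, edgeR adjusted p = 0.0012) and Iglc2 (5.09-fold, adjusted p = 0.0039) were higher in the Tfam f/f-labelled libraries, and Iglc1 and Ighd were not called. The median log2 difference of the 5 was 1.18, against 0.03 over all genes, of which 24.9% were called higher and 21.3% lower. Vpreb1, part of the surrogate light chain of B cell precursors, was lower there (0.330, 0.316 and 0.630 CPM against 1.08, 1.35 and 1.03, edgeR adjusted p = 0.0113). That call was lost without KspCre Tfam f/f-labelled replicate 2 (adjusted p = 0.0508), and Vpreb1 overlaps Top3b on the opposite strand. Iglc2 overlaps Iglj2 on the same strand and Iglc3 overlaps 2010309G21Rik on the opposite one. Among genes named from the lists that follow, Cd22, Bach2, Msh6, Fcgr2b and Vcam1 also overlap exons of a gene on the opposite strand. The strand setting of the counting is unknown, so values of all these genes are uncertain.

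Genes of the B lineage moved less uniformly than the antibody genes themselves. Of 20 B cell genes 12 were tested, 6 higher, 2 lower and 4 not called in the Tfam f/f-labelled libraries (median log2 0.87). Over all genes tested, 24.9% were called higher and 21.3% lower (median log2 0.03). Cd22, an inhibitory receptor of B cells, had 1.65, 1.001 and 2.85 CPM against 0.305, 0.338 and 0.382 CPM (5.30-fold, edgeR adjusted p = 0.0044). Bach2, a transcription factor that holds back plasma cell formation, had 3.71, 5.11 and 3.82 CPM against 10.1, 7.30 and 9.81 CPM (0.466-fold, adjusted p = 0.0047), and Cr2, the complement receptor of B cells and follicular dendritic cells, was also lower (0.262-fold, adjusted p = 0.0075). Cd79a, a signalling part of the B cell receptor, had 0.734, 0.922 and 1.64 CPM against 0.564, 0.604 and 0.763 CPM and was not called (edgeR adjusted p = 0.117). With no scaling factor it was called (adjusted p = 0.0288). Ms4a1, at 0.184 to 0.527 CPM, was not tested. The number of B cell genes called higher was 3, 3 and 2 without Tfam f/f-labelled replicate 3, KspCre Tfam f/f-labelled replicate 1 and KspCre Tfam f/f-labelled replicate 2.

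Of 20 plasma cell genes 18 were tested, 6 higher, 2 lower and 10 not called (median log2 0.39). Those calls stand beside 24.9% of all genes higher and 21.3% lower. Sdc1, the plasma cell surface proteoglycan that epithelia also make, had 41.8, 26.9 and 52.8 CPM against 15.7, 15.4 and 14.9 CPM (2.63-fold, edgeR adjusted p = 0.0028). Irf4, a transcription factor required for plasma cells, had 2.17, 2.13 and 3.40 CPM against 0.705, 0.821 and 0.839 CPM (3.24-fold, adjusted p = 0.0030). Eaf2, a partner of the elongation factor encoded by Ell2, was lower (0.480-fold, adjusted p = 0.0041). Mzb1, an endoplasmic reticulum chaperone of antibody assembly, had 3.78, 2.32 and 2.39 CPM against 2.37, 1.98 and 1.95 CPM and was not called (adjusted p = 0.205), except with no scaling factor (0.0246). It overlaps another gene on its own strand. Tnfrsf17, the BCMA receptor, stood at 0.147, 0.158 and 0.252 CPM against 0.0235, 0.0966 and 0.0382 and was not tested. Without KspCre Tfam f/f-labelled replicate 2 or 3, the number of plasma cell genes called higher was 3 in each case, and 12 with no scaling factor.

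Of 11 class switch and hypermutation genes 6 were tested, 4 higher, 1 lower and 1 not called in the Tfam f/f-labelled libraries (median log2 0.56). Across all genes the shares were 24.9% higher and 21.3% lower. The repair genes Ung (4.40-fold, edgeR adjusted p = 0.00072) and Exo1 (6.23-fold, adjusted p = 0.0028) were higher. Dividing cells of any type use these repair genes. The single lower call, Msh6, was lost in 6 of the alternatives run, among them without any 1 of the KspCre Tfam f/f-labelled libraries.

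Among 11 genes for antibody transport and Fc receptors, 10 were tested, 5 higher, 3 lower and 2 not called (median log2 0.75). Across all genes the shares were 24.9% higher and 21.3% lower. Pigr, the epithelial carrier of polymeric IgA and IgM, had 396, 408 and 467 CPM against 359, 274 and 263 CPM (1.42-fold, edgeR adjusted p = 0.0428). That call was lost without Tfam f/f-labelled replicate 1 (adjusted p = 0.0791), without KspCre Tfam f/f-labelled replicate 2 (0.169) or 3 (0.180), and with the replicate block (0.0908). Fcgr1, the high-affinity IgG receptor of macrophages, was 5.50-fold higher (adjusted p = 0.0053). Fcgr2b, the inhibitory IgG receptor, was lower (0.567-fold, adjusted p = 0.0052), but not called with no scaling factor (0.107). Fcamr, a receptor for IgA and IgM, was lower too, with 1.91, 6.45 and 0.965 CPM against 24.9, 22.8 and 22.3 CPM (0.138-fold, adjusted p = 0.0066), and 0.0617-fold without Tfam f/f-labelled replicate 2. Without KspCre Tfam f/f-labelled replicate 2 or 3, 2 genes of this list were called higher.

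Of 12 survival and homing signals for plasma cells 10 were tested, 2 higher, 2 lower and 6 not called (median log2 0.00). Both shares were near those of all genes, 24.9% higher and 21.3% lower. Tnfsf13b, which encodes the B cell survival factor BAFF, had 4.37, 2.98 and 4.83 CPM against 1.95, 1.52 and 1.56 CPM (2.398-fold, edgeR adjusted p = 0.0061). Ccl28, a chemokine that draws IgA plasma cells to epithelia, had 5.65, 5.93 and 7.89 CPM against 11.4, 17.2 and 26.9 CPM (0.352-fold, adjusted p = 0.0074). Vcam1, an adhesion molecule of stroma and vessels, was 7.84-fold higher (adjusted p = 0.0244) and 2.405-fold without Tfam f/f-labelled replicate 3. The Vcam1 call was lost with limma voom (adjusted p = 0.0935), with the replicate block (0.0746) and without any 1 of the KspCre Tfam f/f-labelled libraries (0.0749, 0.0810 and 0.0812). The number of genes of this list called higher was 5 without Tfam f/f-labelled replicate 2, 4 with the filter on summed counts, and 1 with limma voom, with the block or without KspCre Tfam f/f-labelled replicate 1 or 2. The number called lower was 1 without Tfam f/f-labelled replicate 1 or any 1 of the KspCre Tfam f/f-labelled libraries, and 1 with the block, upper quartile scaling or no scaling factor.

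Markers of several cell types differed between labels, to be read beside the 24.9% of all genes called higher and 21.3% called lower. Of 8 macrophage markers tested 7 were higher in the Tfam f/f-labelled libraries, and their sum was 173 to 549 CPM against 131 to 144. Of 7 T cell markers 2 were higher, a share near that of all genes (14.3 to 30.7 CPM summed against 6.75 to 8.36). These were Lck and Cd4, while Cd3d, Cd3e, Cd3g, Trac and Cd8a were not called. Of 4 tested B cell markers 2 were higher (4.98 to 8.14 against 2.68 to 3.74). Of 5 tested plasma cell markers 2 were higher (64.6 to 106 against 19.3 to 34.3, most of it Jchain). These were Irf4 and Jchain, which is itself a member and so adds nothing independent, while Mzb1, Derl3 and Prdm1 were not called. Of 2 tested neutrophil markers 2 were higher (2.16 to 12.0 against 0.954 to 1.93, with Ly6g at 0 in 5 libraries). Follicular dendritic and lymph node stroma markers overlapped as a sum (3.61 to 14.2 CPM against 5.15 to 7.30), with 1 of 3 tested lower and Madcam1 at 0 in the KspCre Tfam f/f-labelled libraries. Cxcl13, a marker of this list that was not tested, had 106, 8 and 261 counts in the Tfam f/f-labelled libraries (3.89, 0.211 and 11.0 CPM). In those labelled KspCre Tfam f/f it had 4, 4 and 3 counts (0.0939, 0.0966 and 0.114 CPM), with no overlap between groups. Of 4 red blood cell markers 3 were lower (46.5 to 107 CPM against 146 to 182), and of 6 tubule markers 4 were lower (4421 to 10273 CPM against 18395 to 19063). The part of these shifts in the antibody results was not tested.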

How the data were processed

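Poly A+ RNA of 6 whole kidney libraries, 3 per label, was read strand-specifically as pairs of 150 bases, per the labels' protocols. The submitters' processing notes name STAR 2.4.1d, HTSeq 0.11.0, FastQC and Trim Galore, with build mm10. For the annotation release and the strand setting: not given in the sources used here. The authors deposited raw counts per gene, without normalization. The 5 summary lines of each file (16.0% to 20.4% of its sum) were left out.

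Genes were kept by filterByExpr (minimum count 10, total 15), scaled by TMM and compared with the edgeR 4.0.16 quasi-likelihood test (robust, R 4.3.3), with Benjamini-Hochberg adjustment over all 17308 genes and calls under 0.05. Fold changes are labelled Tfam f/f over labelled KspCre Tfam f/f, and the SE is on the log2 scale. Alternatives were other scalings and filters, DESeq2 1.42.0, limma voom (limma 3.58.1), a replicate block and each library left out. The procedure was tested on simulated data. Libraries of a group differed beyond sampling noise (chi-square per degree of freedom 6.57 to 149), so none was merged.

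Members, lists and tests were chosen with earlier results of these data known. Named were all constant genes, the 12 V members with the highest mean CPM, the top V member of each library, members nearest the threshold and up to 3 called genes per list with the smallest p, beside Ms4a1, Cd79a, Tnfrsf17, Mzb1, Pigr and Tfam. Some genes the rule names are not reported here. Others were named after their values were seen. Sums, shares and diversity carry no p. Transcript sequences and positions are of GENCODE M21, which held all 163 members. None overlaps an exon of another gene, and none is among the 131 candidates annotated as pseudogenes. Promoters of V segments were not analysed here.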

Additional observations from a re-analysis of the deposited data

How the results depend on the processing

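Of the 8 constant genes, 7 kept their direction and call in every alternative run, and Ighg3 in those where it was tested, since it did not pass the filter of 1 CPM in 3 libraries. Members called higher numbered 51 when 1 CPM in 3 libraries was required (56 members tested), 65 to 92 with a library left out, and 0 were called lower in any alternative. With no scaling factor the median of all genes shifted to 0.46 on the log2 scale, calls over the whole table were 8519 higher and 1680 lower (83.5% of calls higher, 53.9% as reported), and 7 genes of the surrounding lists were lower (11 as reported). With a library left out, the whole table had 2822 to 4942 genes higher and 2276 to 4652 lower, and the lists 13 to 28 higher (25 as reported). The difference in V members seen was 2.30 at equal V counts and 23.6 at equal library totals. At full V counts, the difference in effective number was 0.97 by Shannon entropy and -4.70 by inverse Simpson. Per exonic length, which the short annotation of Ighg2c affects, the IgG gap was 23.6 percentage points (20.0 per count) and the IgA gap -17.4 (-15.4 per count). Where no cause follows from the alternative's construction, the cause was not tested.

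The replicate block called 81 members higher and 0 lower, with 3586 and 3227 genes over the whole table. Deviations of same-numbered libraries correlated at -0.174, -0.0702 and -0.0708, and no library correlated best with its own number. No pairing by number was thus seen, but what same-numbered libraries share cannot be told from these correlations. Depth limits the scarce segments: 46 members had too few counts to be tested, and KspCre Tfam f/f-labelled replicate 3 held 989 V counts in all.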
